A study of Mus musculus with 30 samples.

Results

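Secreted Wnt antagonists are extracellular proteins that hold back Wnt signalling before it reaches the cell. The secreted frizzled-related proteins (Sfrp1, Sfrp2, Sfrp4, Sfrp5 and Frzb, also called Sfrp3) carry a cysteine-rich domain like that of the Frizzled receptors, and they and Wif1 bind Wnt ligands directly. The Dickkopf protein Dkk2 acts on the co-receptors Lrp5 and Lrp6, and Dkk3 is a divergent member of that family whose place in the pathway is less clear. In the vessel wall Wnt signalling takes part in smooth muscle growth and matrix turnover, and in the kidney it is active during development and repair.

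The 8 genes Sfrp1, Sfrp2, Sfrp4, Sfrp5, Frzb, Dkk2, Dkk3 and Wif1 were described across aortae and kidneys of mice with and without the epidermal growth factor receptor (EGFR) in vascular smooth muscle. They were chosen by name, 8 of 41128 genes counted in each tissue, and the group was selected on a measured value: Sfrp1 differed in opposite directions in the aorta and kidney of knockout mice. This was so for KO against WT on the standard fat diet (SFD) and for high fat diet (HFD) against SFD in KO. Values of all 8 genes in these 2 comparisons are therefore given as a description, with no test. Sfrp1 is given without a test in every comparison, since its WT-SFD values also entered the selection. All 8 genes had counts in both tissues and passed the filter on low counts.

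KO mice carried floxed Egfr and a tamoxifen-inducible Cre recombinase (CreERT2) driven by the smooth muscle Smmhc promoter. This transgene lies on the Y chromosome, so all mice were male. The WT controls had this Cre but no loxP sites, and they too received tamoxifen. All mice were labelled C57Bl6J, and the HFD began at 6 weeks of age and lasted 18 weeks. The recombinase acts in smooth muscle, which is most of the aortic wall and a small part of the kidney. Aortae came from 3 WT-SFD, 4 WT-HFD, 3 KO-SFD and 4 KO-HFD mice, and kidneys from 4 mice of each of these groups. Libraries are numbered within a group and tissue, and 3 mice gave both organs: WT-SFD aorta 1 and kidney 1, KO-SFD aorta 1 and kidney 3, and KO-HFD aorta 3 and kidney 2. Total counts were 6403699 to 13052870 per aorta and 16354880 to 28331314 per kidney. The organs were sequenced at different places and were never fitted together. Expression is given in FPM, fragments per 1000000 counted, scaled by TMM, a factor that balances the bulk of genes between libraries. In tissue RNA, fewer cells of a type and less RNA per cell cannot be told apart.

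The targeted gene followed the labels in the aorta. Egfr was at 39.5, 46.7 and 54.3 FPM in WT-SFD and at 26.8, 28.0 and 35.5 FPM in KO-SFD. It was at 51.2, 57.0, 57.0 and 65.1 FPM in WT-HFD and at 27.5, 33.4, 39.7 and 40.6 FPM in KO-HFD. Every KO aorta was thus below every WT aorta of the same diet, although neither difference passed over all genes (adjusted p = 0.531 on SFD and 0.13 on HFD, edgeR). In the kidney Egfr was 53.6 ± 5.77 FPM in KO-SFD and 50.4 ± 8.13 FPM in WT-SFD (mean ± SD, n = 4 each), and the groups overlapped.

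The smooth muscle markers in the aorta were high, led by Acta2, except that Tagln and Cnn1 had no count in any library, so 6 of 8 markers were summed. Of 6 endothelial markers, Cdh5 had no count in any library. Acta1, Kcnj1, Upk2 and Cd3e, from other marker lists, also had no count in any aorta or kidney, as had Tagln, Cnn1 and Cdh5. Cdh5 and Acta1 start at bases 104101625 and 123891769 of chromosome 8. Cnn1, Kcnj1, Upk2, Cd3e and Tagln lie between bases 22099216 and 45936058 of chromosome 9. The missing counts of these genes are not read as absent expression, and why they are missing was not tested. Some aortae carried fat. The summed FPM of 10 adipocyte markers, led by Plin4, was 4258 and 3296 in WT-SFD aortae 1 and 2 and 2820 and 1144 in KO-SFD aortae 1 and 2. It was 518 in WT-SFD aorta 3, 514 in KO-SFD aorta 3 and 466 to 604 in the 8 HFD aortae. The summed smooth muscle markers were lowest in 3 of these 4 fat-rich aortae: 9979 FPM in WT-SFD aorta 1, 10741 FPM in KO-SFD aorta 1 and 12328 FPM in WT-SFD aorta 2, against 14901 to 17972 FPM in the other 11. Member values from the SFD aortae are therefore set beside those without the 4 fat-rich libraries where these lay far apart. That fit leaves 1 SFD mouse of each genotype, assumed to vary like the other groups, and was chosen after seeing the data.

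The kidneys carried their own markers: summed FPM was 8857 to 15707 for the proximal tubule, led by Slc34a1, 2988 to 7535 for the thick ascending limb, led by Umod and with Kcnj1 at 0, and 1575 to 2878 for the distal tubule and collecting duct, led by Aqp2. Summed smooth muscle markers, with Tagln and Cnn1 again at 0, were 124 to 185 FPM in the kidney.

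The plot of levels per length shows how far the 2 organs differ in the antagonists they express. Counts were divided by the exon length of each gene (GENCODE vM21, GRCm38), so that genes could be set side by side.

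**Figure D1:**
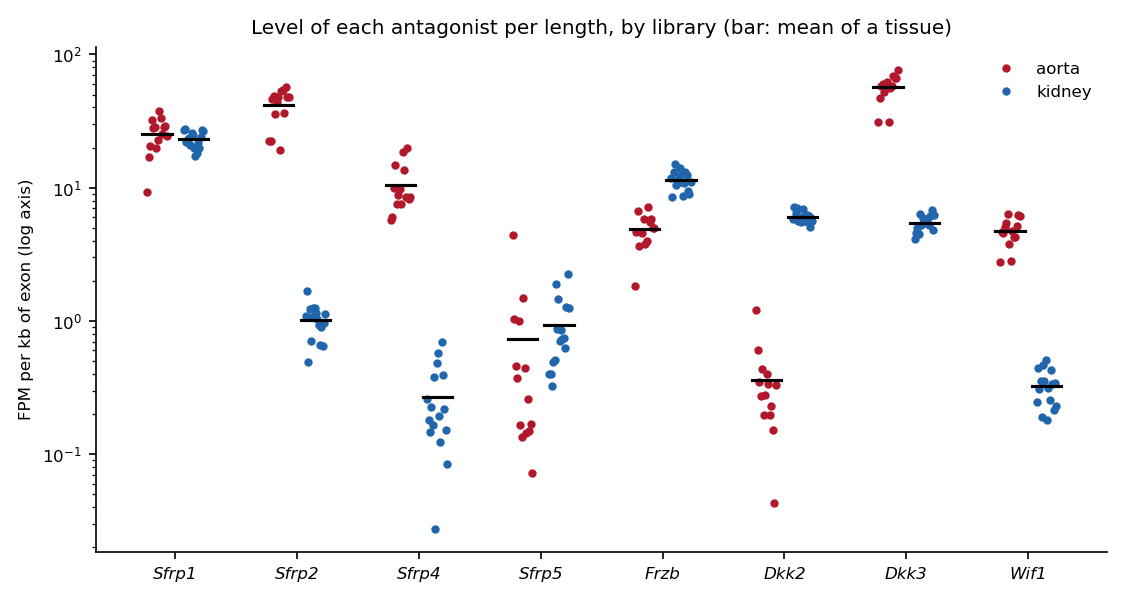
FPM per kilobase of exon on a log axis for each antagonist, 1 point per library (14 aortae in red, 16 kidneys in blue), with a bar at the mean of a tissue. Sfrp1 lies near 25.4 in the aorta and 23.1 in the kidney, whereas Sfrp2, Sfrp4, Dkk3 (56.7 in the aorta and 5.46 in the kidney) and Wif1 lie far lower in the kidney and Dkk2 and Frzb lie higher there.

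In the aorta Dkk3 was the most abundant member per length in every group, from 45.5 ± 13.5 FPM per kb in WT-SFD (n = 3) to 69.9 ± 4.53 in KO-HFD (n = 4). Sfrp2 came next (30.2 ± 13.6 in WT-SFD, 47.3 ± 8.23 in KO-HFD), then Sfrp1 (15.6 ± 5.77 and 26.8 ± 2.43) and Sfrp4 (7.23 ± 2.36 and 11.3 ± 5.78). Libraries of Dkk3 and Sfrp2 overlapped in WT-SFD and were separate in KO-HFD. Frzb and Wif1 followed at 4.36 ± 2.43 and 3.99 ± 1.07 FPM per kb in WT-SFD and exchanged places between groups, with differences smaller than the larger SD. Sfrp5 and Dkk2 were at the bottom, at 1.95 ± 2.12 and 0.725 ± 0.444 FPM per kb in WT-SFD and 0.162 ± 0.0762 and 0.19 ± 0.122 in KO-HFD, and differed by less than the larger SD. For comparison, Sost, the sclerostin gene best known from bone, stood above all 8 members in the aorta, at 248 ± 73.9 FPM per kb over the 14 libraries.

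In the kidney the order was different. Sfrp1 was first in every group, from 19.3 ± 1.98 FPM per kb in KO-SFD to 24.8 ± 2.73 in WT-SFD (n = 4 each). Frzb was second (10.5 ± 1.56 to 12.1 ± 2.82). Dkk2 and Dkk3 were next, and they exchanged places: 6.61 ± 0.614 and 4.55 ± 0.37 FPM per kb in WT-SFD, and 5.70 ± 0.476 and 6.02 ± 0.864 in KO-HFD. Sfrp2 (0.91 to 1.12), Sfrp5 (0.404 to 1.35), Wif1 (0.279 to 0.379) and Sfrp4 (0.203 to 0.396) came last, and Sfrp2 and Sfrp5, like Wif1 and Sfrp4, exchanged places between groups. Sost was at 0.455 ± 0.263 FPM per kb over the 16 kidneys. Frzb and Dkk2 were higher per length in every kidney than in every aorta, at 8.48 to 15.2 against 1.81 to 7.17 FPM per kb for Frzb and 5.06 to 7.16 against 0.0432 to 1.22 for Dkk2. The organs were sequenced and scaled apart, and these levels were not tested against each other.

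Sfrp1 (8:23411502-23449632, plus strand, GRCm38) binds Wnt ligands and is the member on which the group was selected. In the aorta it was at 40.5, 74.0 and 90.0 FPM in WT-SFD aortae 1, 2 and 3. It was at 99.4, 164 and 145 FPM in KO-SFD aortae 1, 2 and 3. The 3 KO aortae were thus higher than any of the 3 WT aortae, and in both genotypes the aorta with the highest adipocyte sum was the lowest. WT-HFD aortae were at 86.8, 122, 125 and 141 FPM and KO-HFD aortae at 106, 110, 126 and 127 FPM, so the genotypes overlapped on HFD.

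As a description, the log2 fold change of Sfrp1 in the aorta for KO against WT on SFD was 1.00 (SE 0.247), with group means of 136 ± 33.2 and 68.2 ± 25.2 FPM. It was 0.94 with the mean of the adipocyte markers as a covariate and 0.69 without the 4 fat-rich aortae. Leaving out 1 library at a time gave 0.73 to 1.25, the lowest without WT-SFD aorta 1. Summed leucocyte markers, led by Lyz2, also separated these groups (103 to 159 FPM in KO-SFD and 65.8 to 71.5 FPM in WT-SFD), and their correlation with Sfrp1 over the 14 aortae was r = 0.375. Lists with stronger correlations overlapped between the 2 groups. Cartilage markers (r = 0.773), led by Comp, summed to 33.8 to 70.5 FPM in KO-SFD and 31.5 to 52.6 FPM in WT-SFD, and the 4 of 7 tested had a median log2 fold change of 0.48, all above 0. For smooth muscle markers (r = 0.724) the sums were 10741 to 16669 and 9979 to 15409 FPM, for Schwann cell markers (r = -0.716) 7.80 to 33.9 and 9.39 to 105 FPM, and for fibroblast markers (r = 0.621) 1401 to 2942 and 1388 to 2613 FPM. The part of these cell types in the Sfrp1 difference was not tested. On HFD the log2 fold change of KO against WT was -0.02 (SE 0.213). HFD against SFD in KO gave -0.21 (SE 0.23), between -0.39 and -0.05 with 1 library left out, -0.51 with the adipocyte covariate and -0.30 without the fat-rich aortae. The difference of the diet effect between KO and WT was -1.01 (SE 0.326) on the log2 scale and -0.71 without the fat-rich aortae. The WT-SFD and KO-SFD libraries enter more than 1 of these values, which are not independent of each other.

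In the kidney Sfrp1 was at 95.8, 101, 118 and 120 FPM in WT-SFD and at 75.0, 80.0, 87.0 and 94.9 FPM in KO-SFD. Here all 4 KO values lay below all 4 WT values, by a log2 fold change of -0.37 (SE 0.114). WT-HFD kidneys were at 91.6, 103, 109 and 112 FPM and KO-HFD kidneys at 86.3, 106, 116 and 118 FPM, and these groups overlapped (log2 fold change 0.04, SE 0.113). HFD against SFD in KO gave 0.34 (SE 0.114) and the difference of the diet effect was 0.40 (SE 0.161). Leaving out 1 kidney at a time kept KO against WT on SFD between -0.43 and -0.31. With the inner medulla markers as a covariate it was -0.36. Other cell type markers differed between these groups. The summed podocyte markers, led by Podxl and with counts for 5 of 5, were 171 to 214 FPM in KO-SFD and 226 to 313 FPM in WT-SFD, without overlap, and their correlation with Sfrp1 over the 16 kidneys was r = 0.816. They were 223 to 323 FPM in WT-HFD and 205 to 306 FPM in KO-HFD. The thick ascending limb markers were 6969 to 7535 FPM in KO-SFD and 5053 to 6919 FPM in WT-SFD, with r = -0.563, and 2988 to 5641 FPM in KO-HFD. The proximal tubule markers were 8857 to 10129 FPM in KO-SFD and 9864 to 13594 FPM in WT-SFD, which overlapped, with r = 0.569. The part of these cell types in the Sfrp1 values was not tested.

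The WT-SFD mouse that gave both organs had 40.5 FPM of Sfrp1 in the aorta and 118 in the kidney, whereas the KO-SFD mouse had 99.4 and 80.0. The WT-SFD mouse was thus the lower of these 2 mice in the aorta and the higher in the kidney. The KO-HFD mouse had 127 and 106 FPM. The aortae of the 2 SFD mice are both among the fat-rich libraries.

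**Figure D2:**
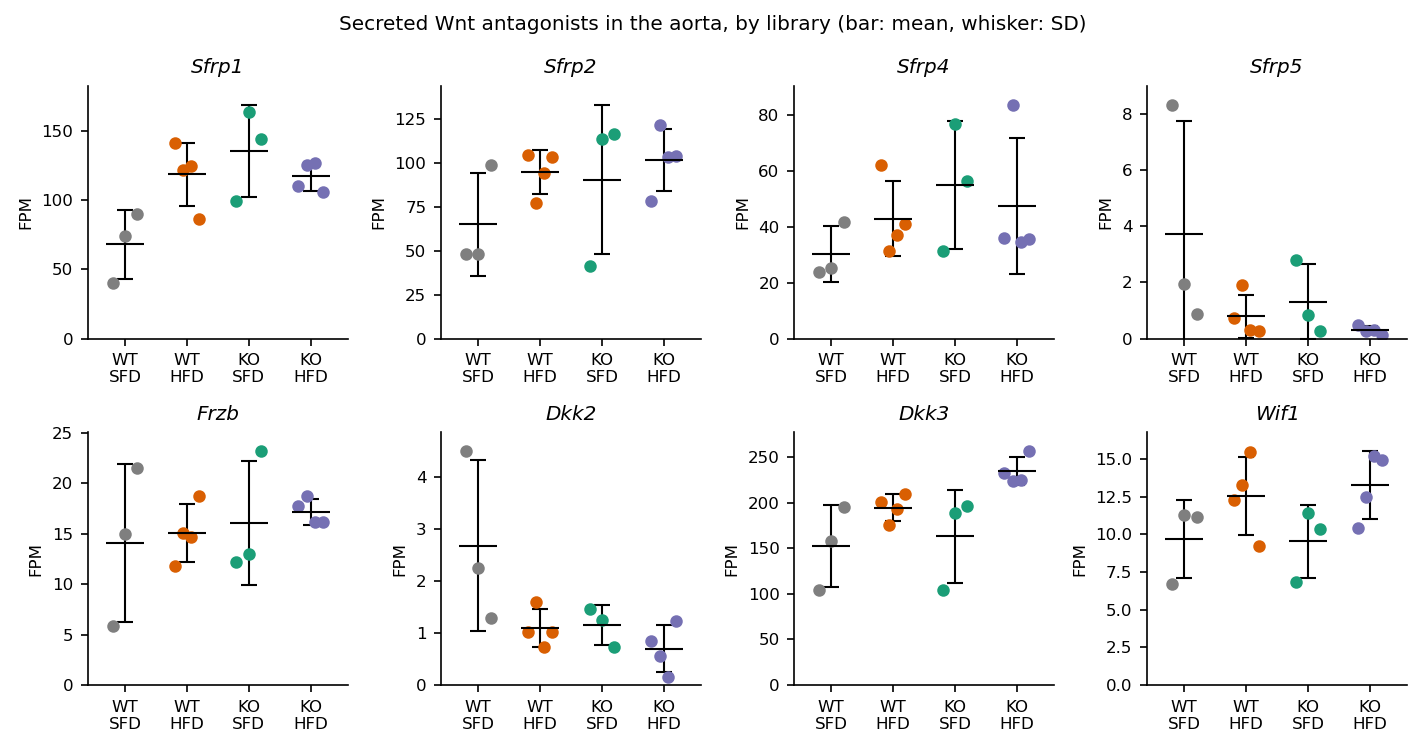
FPM of each antagonist in the 14 aortae (points) by genotype and diet, with the group mean (bar) and SD (whisker) on linear axes that start at 0. For Sfrp1 the 3 WT-SFD points (40.5 to 90.0) lie below the 3 KO-SFD points (99.4 to 164), and for Dkk3 the 4 KO-HFD points (224 to 257) lie above all other aortae.

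**Figure D3:**
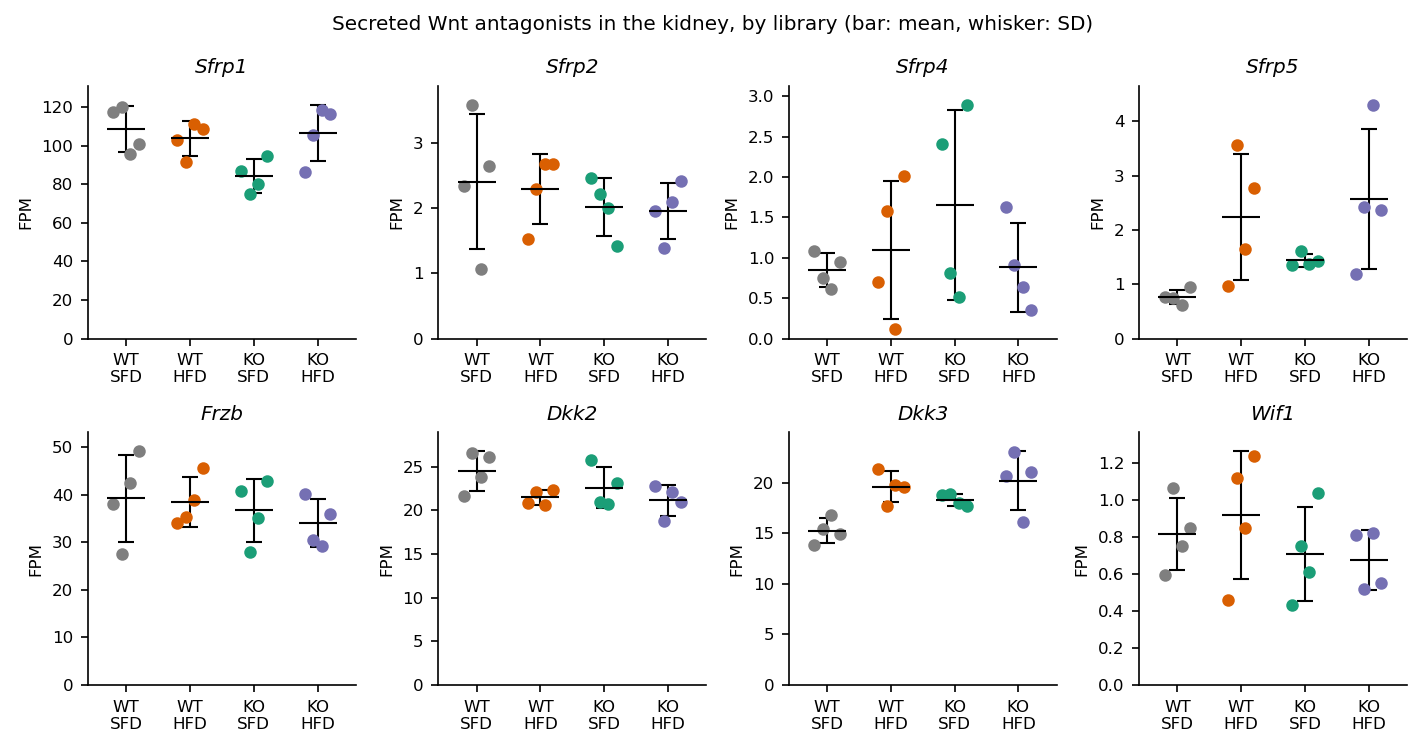
FPM of each antagonist in the 16 kidneys (points) by genotype and diet, with the group mean (bar) and SD (whisker) on linear axes that start at 0. For Sfrp1 the 4 KO-SFD points (75.0 to 94.9) lie below the 4 WT-SFD points (95.8 to 120), and for Sfrp5 and Dkk3 the WT-SFD points lie below the WT-HFD points.

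The effect of HFD in WT aortae could be tested for the 7 members other than Sfrp1. None had an adjusted p under 0.05 by edgeR, beside 0% of the 14796 genes tested. At an unadjusted p under 0.05 there were 2 of 7 members (Sfrp5 and Dkk2, both lower), beside 17% of all genes, 5.68% higher and 11.3% lower. DESeq2 called 0 of 7, beside 666 genes or 4.5%.

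This comparison shares the WT-SFD libraries with KO against WT on SFD. As a description, Sfrp1 was 1.74 times as high in WT-HFD as in WT-SFD aortae (119 ± 23.0 and 68.2 ± 25.2 FPM, n = 4 and 3), a log2 fold change of 0.80 (SE 0.231), and the groups overlapped. It was 0.53 with the adipocyte covariate and 0.41 without the 4 fat-rich aortae. Sfrp2 (3:83766321-83774316, plus strand), a Wnt-binding protein of stromal cells, was at 47.9, 48.2 and 98.9 FPM in WT-SFD and at 77.2, 94.1, 103 and 105 FPM in WT-HFD (log2 fold change 0.55, SE 0.31, adjusted p = 0.4). The high WT-SFD value was that of aorta 3, with little fat, and lay within the WT-HFD range. Without the fat-rich aortae the log2 fold change of Sfrp2 was -0.06. With all aortae the value was 0.51 (SE 0.358) for Sfrp4, for Wif1 0.37 (SE 0.236), for Dkk3 0.35 (SE 0.204) and for Frzb 0.10 (SE 0.32), with adjusted p from 0.41 to 0.919. Without the fat-rich aortae these values were 0.048 for Sfrp4, 0.18 for Wif1, -0.00022 for Dkk3 and -0.51 for Frzb. Without WT-SFD aorta 1 alone, Dkk3 had 0.14, Wif1 0.17 and Frzb -0.27, and without WT-HFD aorta 1 Sfrp4 had 0.27. Without WT-SFD aorta 3 alone, Dkk3 had 0.57, Sfrp4 0.81 and Frzb 0.51, and without WT-SFD aorta 2 Wif1 had 0.50. Summed smooth muscle markers were 9979 to 15409 FPM in WT-SFD and 15874 to 16605 FPM in WT-HFD, without overlap, and their part in these values was not tested.

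Sfrp5 (19:42197971-42202252, minus strand), known as a fat cell product as well as a Wnt-binding protein, was at 8.33, 1.95 and 0.866 FPM in WT-SFD aortae 1, 2 and 3. The counts behind these values were 61, 19 and 6. It was at 0.714, 1.91, 0.313 and 0.256 FPM in WT-HFD, from 2 to 19 counts. The log2 fold change was -2.13 (SE 0.782, adjusted p = 0.149). It was -0.29 with the adipocyte covariate, -0.06 without the fat-rich aortae and -0.82 without WT-SFD aorta 1 alone. In KO-SFD, Sfrp5 was at 2.81, 0.836 and 0.272 FPM in aortae 1, 2 and 3, which is the order of their adipocyte sums.

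Dkk2 (3:132085292-132180304, plus strand), an antagonist of the Lrp5 and Lrp6 co-receptors, was at 4.50, 2.26 and 1.30 FPM in the same WT-SFD aortae and at 0.73 to 1.61 FPM in WT-HFD. Its log2 fold change was -1.27 (SE 0.494, adjusted p = 0.188), -0.63 with the covariate, -0.23 without the fat-rich aortae and -0.72 without WT-SFD aorta 1 alone. Without WT-SFD aorta 3, 3 of 7 members passed, beside 12.4% of all genes: Sfrp2 (0.98, adjusted p = 0.048), Sfrp5 (-2.56, adjusted p = 0.0216) and Dkk2 (-1.57, adjusted p = 0.0451). The WT-SFD group then consists of the 2 aortae with the highest adipocyte sums of the series.

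Frzb (2:80411970-80447625, minus strand) was at 5.87, 15.0 and 21.5 FPM in WT-SFD aortae 1, 2 and 3, which is the reverse order of their adipocyte sums. It was at 11.8 to 18.8 FPM in WT-HFD, inside the WT-SFD range. Wif1 (10:121033960-121100650, plus strand), which binds Wnt ligands outside the cell, was at 6.69, 11.3 and 11.1 FPM in the same WT-SFD aortae and at 9.21 to 15.4 FPM in WT-HFD. Its lowest values over all aortae were those of WT-SFD aorta 1 and KO-SFD aorta 1 (6.83 FPM), both fat-rich.

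**Figure D4:**
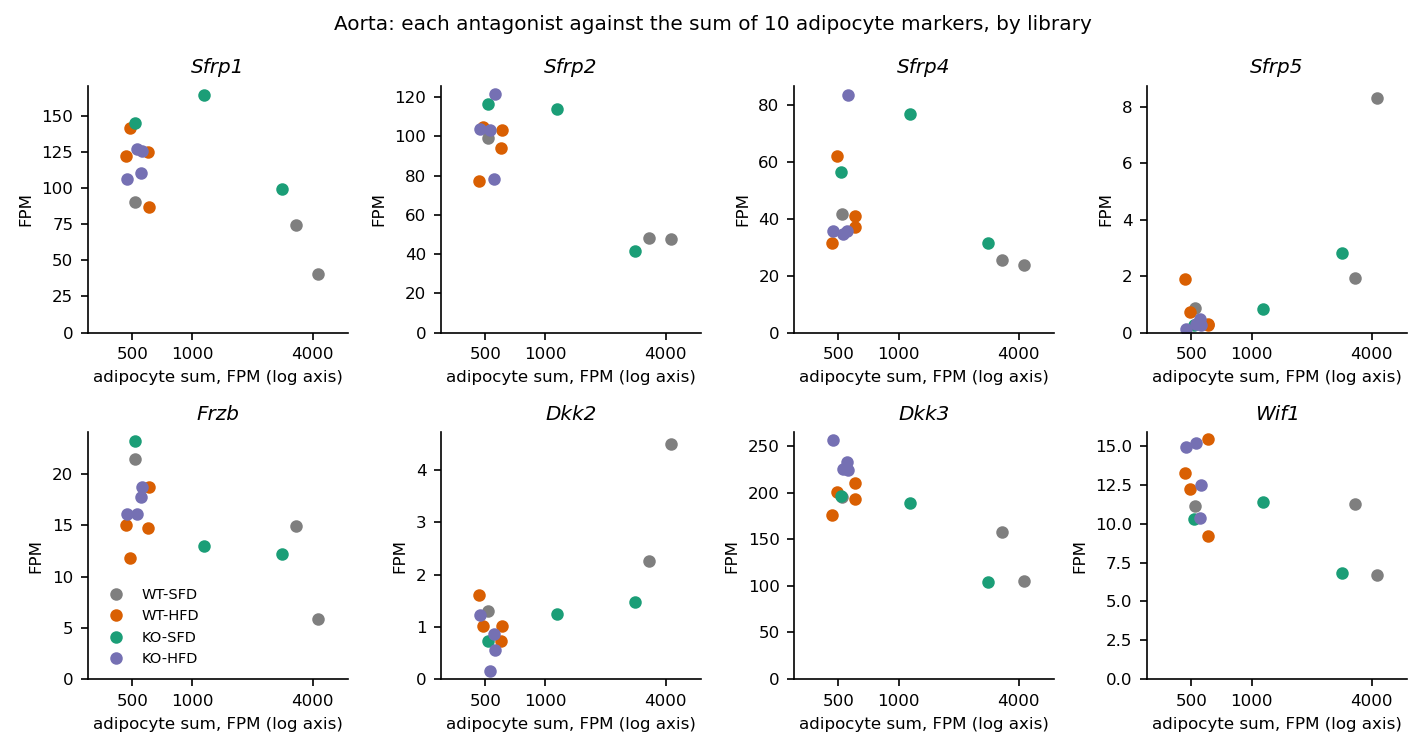
FPM of each antagonist (y, linear from 0) against the summed FPM of 10 adipocyte markers (x, log axis) in the 14 aortae, coloured by group. The 10 aortae with little fat sit between 466 and 604 on the x axis, and Sfrp5 and Dkk2 are highest in the aorta with the largest adipocyte sum (4258), where Sfrp1, Sfrp4, Frzb and Wif1 are lowest.

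The antagonists lay on different sides in the aorta with the most fat. Sfrp5 and Dkk2 had their highest value over all 14 aortae in WT-SFD aorta 1, whose adipocyte sum was the largest. Sfrp1, Sfrp4, Frzb and Wif1 had their lowest value in that aorta, and Sfrp2 and Dkk3 had theirs in KO-SFD aorta 1. The summed brown adipocyte markers, led by Ucp1, were also highest in WT-SFD aorta 1 (1054 FPM, against 23.7 to 67.7 FPM in the 10 aortae with little fat), and so were the Schwann cell markers, led by Mbp (105 FPM, against 3.30 to 15.6 FPM). Summed fibroblast markers, led by Col1a1, were 1388 to 1691 FPM in WT-SFD aortae 1 and 2 and KO-SFD aorta 1, and 1943 to 2942 FPM in the other 11 aortae. The smooth muscle sum followed the members about as closely as the adipocyte sum over the 14 aortae. For Sfrp5 r was -0.895 and 0.82, for Dkk3 0.931 and -0.858, and for Sfrp2 0.877 and -0.851. For Sfrp4 (0.474 and -0.485) and Frzb (0.683 and -0.686) the adipocyte value was slightly stronger. Beyond the covariate and the fits without the fat-rich libraries, the part of fat, smooth muscle, Schwann cells or stroma in the antagonist values was not tested.

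KO against WT on HFD could be tested in the aorta for the 7 members other than Sfrp1, where all 8 libraries had little fat. None of the 7 passed at an adjusted p under 0.05, beside 0.0811% of all genes, and none at an unadjusted p under 0.05, beside 5.35%. DESeq2 also called 0 of 7. Dkk3 (7:112116017-112159057, minus strand) was at 224, 225, 233 and 257 FPM in KO-HFD and at 175, 193, 201 and 210 FPM in WT-HFD. The groups did not overlap, but the log2 fold change of 0.27 (SE 0.189) had an adjusted p of 0.999 and a 95% interval from -0.10 to 0.64. Of the 7, Sfrp5 had the largest difference, -1.37 (SE 1.1), from 1 to 4 counts per KO-HFD library, and it was -0.48 without WT-HFD aorta 2. The other 5 had log2 fold changes from -0.77 (Dkk2, SE 0.569) to 0.19 (Frzb, SE 0.292). The Dkk2 value was -0.36 without KO-HFD aorta 3. In KO-HFD, Sfrp4 (13:19623104-19632994, plus strand), a Wnt-binding protein, was at 83.6 FPM in aorta 2 and at 34.5, 35.6 and 35.8 FPM in the other 3.

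For the difference of the diet effect between KO and WT aortae, none of these 7 members passed at an adjusted p under 0.05 (0% of all genes did), none at an unadjusted p under 0.05 (4.37% of all genes), and none with DESeq2. The estimates ran from -0.72 (Sfrp4, SE 0.503, and -0.30 without the fat-rich aortae) to 0.49 (Dkk2, SE 0.788). Without the fat-rich aortae the Dkk2 value was 0.037 and that of Sfrp2 moved from -0.38 to -0.14. Without WT-SFD aorta 1 alone, Dkk2 had -0.060. Their 95% intervals were wide: for Dkk3 from -0.39 to 0.74 and for Sfrp2 from -1.24 to 0.48.

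As a description with no test, KO-SFD against WT-SFD aortae gave log2 fold changes of 0.86 (SE 0.382) for Sfrp4, 0.48 (SE 0.332) for Sfrp2, 0.20 (SE 0.342) for Frzb, 0.10 (SE 0.218) for Dkk3 and -0.03 (SE 0.256) for Wif1. For the same comparison they were -1.26 (SE 0.546) for Dkk2 and -1.58 (SE 0.801) for Sfrp5, and the Sfrp5 value lay between -2.83 and -0.27 with 1 library left out. Without the fat-rich aortae the values were 0.44 for Sfrp4, 0.24 for Sfrp2, -0.83 for Dkk2 and -1.62 for Sfrp5. Frzb, Dkk3 and Wif1 had no steady direction with 1 library left out, from -0.16 to 0.62, -0.11 to 0.34 and -0.23 to 0.16, each lowest without WT-SFD aorta 1. Sfrp2 was then 0.30 to 0.92, highest without WT-SFD aorta 3, Sfrp4 was 0.56 without KO-SFD aorta 2, and Dkk2 was -0.72 without WT-SFD aorta 1. Library totals without TMM shifted the median of all genes in this comparison by 0.293, and with them Dkk3 had 0.42, Frzb 0.52, Wif1 0.28 and Sfrp2 0.82. The median over the 8 members was 0.15, and over all genes tested -0.03. In KO-SFD, Sfrp4 was at 31.3, 76.8 and 56.5 FPM in aortae 1, 2 and 3, against 23.7, 25.3 and 41.6 FPM in WT-SFD. Summed leucocyte markers, led by Lyz2 and with Cd3e at 0, were 103 to 159 FPM in KO-SFD and 65.8 to 71.5 FPM in WT-SFD, and their part in the Sfrp4 and Sfrp1 values was not tested. HFD against SFD in KO aortae gave 0.52 (SE 0.204) for Dkk3, 0.47 (SE 0.234) for Wif1, 0.17 (SE 0.309) for Sfrp2, 0.08 (SE 0.316) for Frzb, -0.21 (SE 0.353) for Sfrp4, -0.78 (SE 0.614) for Dkk2 and -1.92 (SE 1.11) for Sfrp5. The Sfrp5 value was -0.38 with the adipocyte covariate, 0.18 without the fat-rich aortae and -0.67 without KO-SFD aorta 1. For Dkk2 it was -0.27 with the covariate, -0.20 without the fat-rich aortae and -0.38 without KO-HFD aorta 3. For 3 members 1 library turned the direction: Sfrp4 ran from -0.65 without KO-HFD aorta 2 to 0.12 without KO-SFD aorta 2, Sfrp2 from -0.18 without KO-SFD aorta 1 to 0.38, and Frzb from -0.085 without that aorta to 0.44. Without the fat-rich aortae, Sfrp2 had -0.19 and Frzb -0.43. Dkk3 was at 104, 189 and 196 FPM in KO-SFD, with the lowest value in fat-rich aorta 1, and every KO-HFD aorta was above these. The Dkk3 value was 0.19 with the adipocyte covariate, 0.26 without the fat-rich aortae and 0.28 without KO-SFD aorta 1 alone, and the Wif1 value was 0.29 without that aorta.

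**Figure D5:**
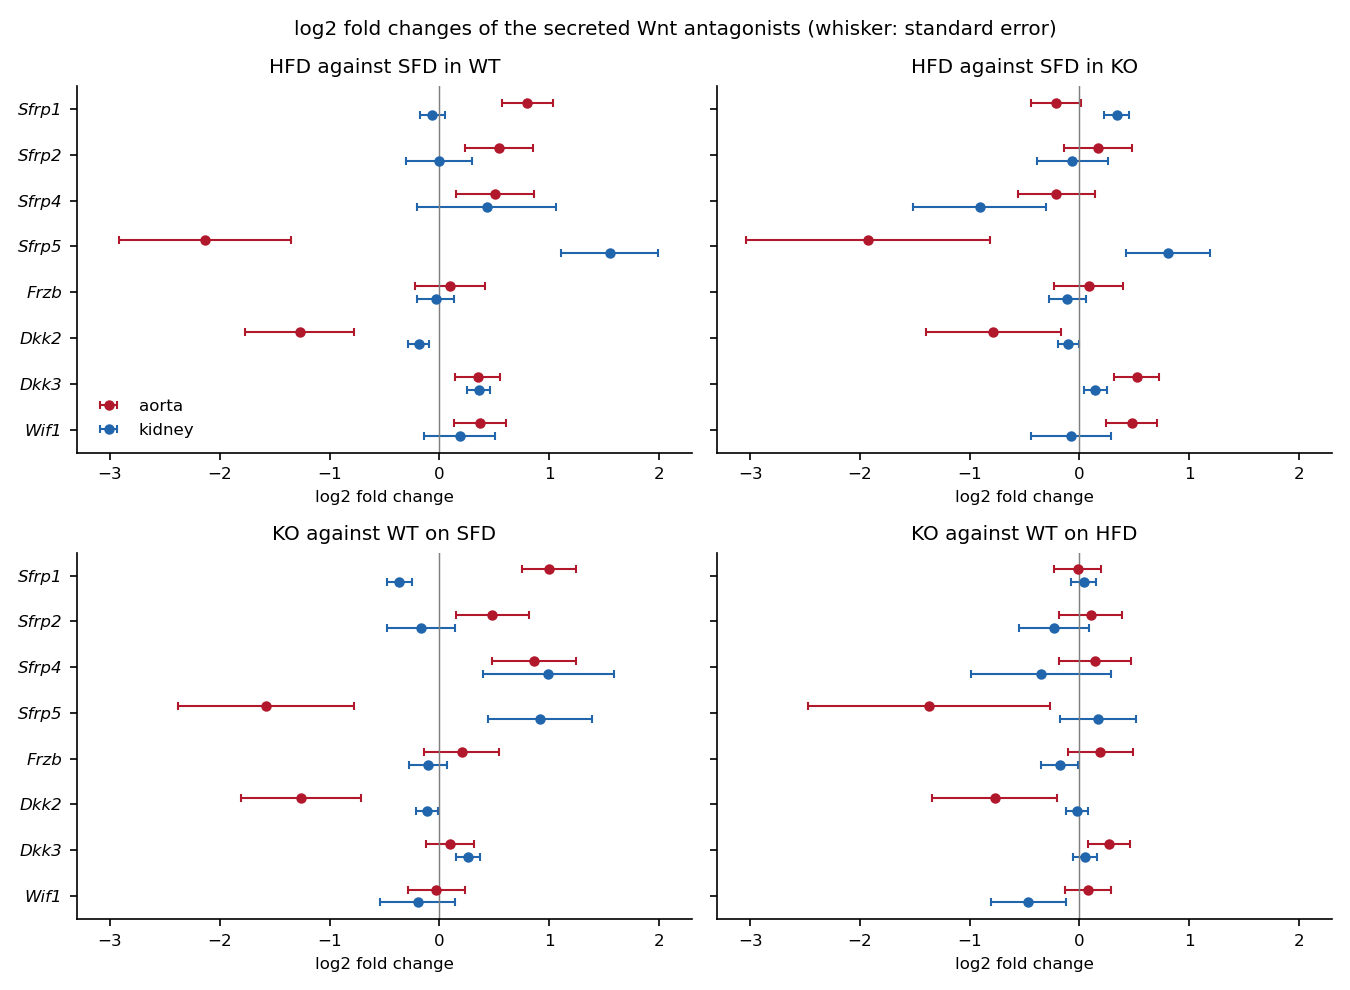
log2 fold change (point) and standard error (whisker) of each antagonist in 4 comparisons, aorta in red and kidney in blue, with the zero line in grey. Sfrp1 lies on opposite sides of 0 in the 2 organs for KO against WT on SFD (1.00 and -0.37) and for HFD against SFD in KO (-0.21 and 0.34), by which the genes were selected.

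In WT kidneys the diet comparison was tested for the same 7 members. None passed at an adjusted p under 0.05, beside 0.964% of the 15034 genes tested. At an unadjusted p under 0.05 there were 2 of 7, Sfrp5 and Dkk3, both higher on HFD, beside 8.05% of all genes, 4.78% higher and 3.27% lower. DESeq2 called 1 of 7, Sfrp5 (adjusted p = 0.0166), beside 263 genes or 1.75%.

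Sfrp5 was at 0.617, 0.754, 0.759 and 0.941 FPM in WT-SFD kidneys and at 0.972, 1.65, 2.77 and 3.57 FPM in WT-HFD kidneys, from 12 to 21 and 21 to 70 counts. All 4 HFD values lay above all 4 SFD values, the nearest pair being 0.941 and 0.972 FPM. The log2 fold change was 1.55 (SE 0.443, edgeR adjusted p = 0.127). Without WT-HFD kidney 1, the lowest of its group, it was 1.81 (adjusted p = 0.0359), where 0.686% of all genes passed. Without WT-HFD kidney 2, the highest of its group, it was 1.24. The summed adipocyte markers were 218 to 326 FPM in WT-HFD and 249 to 482 FPM in WT-SFD. The summed cartilage markers, led by Comp and with counts for 7 of 7, were 4.54 to 6.11 FPM in WT-HFD and 1.88 to 4.45 FPM in WT-SFD, without overlap. Comp itself had means of 2.05 FPM in WT-HFD and 1.90 FPM in WT-SFD, so the difference lay mostly in other genes of the list. The cells behind this low sum were not determined. The correlation of the cartilage sum over the 16 kidneys was r = 0.58 with Sfrp5 and 0.511 with Dkk3. For the thick ascending limb markers it was -0.67 with Sfrp5. For Dkk3 the fibroblast list, led by Col14a1, had r = 0.54 and the leucocyte list 0.506. Fibroblast sums were 113 to 177 FPM in WT-HFD and 105 to 120 FPM in WT-SFD, and leucocyte sums 64.5 to 106 and 44.7 to 125 FPM, so both overlapped. The part of the cells behind these lists in the Sfrp5 and Dkk3 values was not tested. In KO kidneys, Sfrp5 was at 1.35, 1.38, 1.42 and 1.62 FPM on SFD and at 1.19, 2.36, 2.42 and 4.30 FPM on HFD, and the groups overlapped.

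Dkk3 was at 13.8, 15.0, 15.5 and 16.8 FPM in WT-SFD kidneys and at 17.7, 19.5, 19.8 and 21.4 FPM in WT-HFD kidneys, again without overlap. Its log2 fold change was 0.36 (SE 0.108, adjusted p = 0.207). KO-SFD kidneys were at 17.7, 17.9, 18.8 and 18.9 FPM and KO-HFD kidneys at 16.1, 20.7, 21.0 and 23.0 FPM, so WT-SFD held the 3 lowest values of all 16 kidneys. Sfrp1, the highest member per length, had a log2 fold change of -0.06 (SE 0.113), given as a description. For Dkk2 it was -0.19 (SE 0.0986) and for Frzb -0.03 (SE 0.168). Sfrp2, Wif1 and Sfrp4 had 31 to 59, 10 to 26 and 2 to 42 counts per WT library, and their log2 fold changes were -0.0032 (SE 0.304), 0.18 (SE 0.32) and 0.43 (SE 0.633).

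KO against WT on HFD in the kidney gave no member of the 7 at an adjusted p under 0.05 (0% of all genes), none at an unadjusted p under 0.05 (1.75% of all genes) and none with DESeq2. The log2 fold changes ran from -0.46 (Wif1, SE 0.343) to 0.17 (Sfrp5, SE 0.346). With 1 kidney left out, the Wif1 value ran from -0.69 to -0.27. The 95% intervals of the 3 members with the most counts were -0.51 to 0.15 for Frzb, -0.22 to 0.17 for Dkk2 and -0.16 to 0.26 for Dkk3. The difference of the diet effect also gave 0 of 7 at either limit and with DESeq2, beside 0% of all genes adjusted and 3.35% unadjusted, with estimates from -1.34 (Sfrp4, SE 0.875) to 0.09 (Dkk2, SE 0.14). As a description, KO-SFD against WT-SFD kidneys gave 0.99 (SE 0.597) for Sfrp4, 0.92 (SE 0.47) for Sfrp5, 0.26 (SE 0.109) for Dkk3 and -0.20 to -0.10 for Sfrp2, Frzb, Dkk2 and Wif1. The Sfrp4 value was 0.60 without KO-SFD kidney 4 and 0.51 with the inner medulla covariate, and with 1 kidney left out Sfrp2 ran from -0.47 to 0.074 and Frzb from -0.23 to 0.022. Wif1 then ran from -0.43 to -0.013 and Dkk2 from -0.18 to -0.069. HFD against SFD in KO kidneys gave 0.81 (SE 0.381) for Sfrp5, -0.91 (SE 0.604) for Sfrp4, 0.15 (SE 0.108) for Dkk3, -0.07 (SE 0.325) for Sfrp2, -0.11 (SE 0.17) for Frzb, -0.10 (SE 0.0994) for Dkk2 and -0.08 (SE 0.364) for Wif1. With 1 kidney left out, Sfrp5 ran from 0.50 (without KO-HFD kidney 3) to 1.03, Sfrp4 from -1.36 to -0.52 (without KO-SFD kidney 4) and Dkk3 from 0.067 (without KO-HFD kidney 2) to 0.25. Sfrp2 ran from -0.20 to 0.078 and Wif1 from -0.27 to 0.15, so their direction rested on 1 kidney. Frzb ran from -0.22 to -0.030 and Dkk2 from -0.14 to -0.032. Sfrp4 was -0.29 with the inner medulla covariate. The medians over the 8 members were -0.11 and -0.07, beside -5.5e-05 and -0.0037 over all genes.

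Sfrp4 in the kidney varied within groups, from 0.114 to 2.01 FPM in WT-HFD and from 0.511 to 2.90 FPM in KO-SFD. The gene with the pattern most like it was Upk1a, a urothelial membrane protein (2.10 to 25.0 FPM, r = 0.85 over 16 kidneys). The summed urothelial markers ranged from 4.66 to 60.9 FPM over the 16 kidneys, and the kidney with the lowest sum, WT-HFD kidney 3, also had the lowest Sfrp4. KO-SFD kidneys 1 and 4 had the 2 highest values of Sfrp4 (2.41 and 2.90 FPM), of the urothelial sum (60.9 and 42.6 FPM) and of the adipocyte sum (604 and 971 FPM). The part of urothelium or fat in the Sfrp4 values was not tested. The summed inner medulla markers, led by Slc14a2, ran from 61.8 to 298 FPM.

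Promoters of the members were read from RefSeq (GRCm38.p6), from 250 bases before to 50 bases after the start site, and 5 of 8 matched (Sfrp2, Sfrp5, Frzb, Dkk2 and Wif1). Both strands were searched for the TCF/LEF core (CTTTGA or CTTTGT), through which Wnt signals reach DNA, the GC box (GGGCGG), the CArG box of serum response factor (CC, 6 bases of A or T, GG) and the EGR core. Of 32851 promoters of this length, 31.2% held a TCF/LEF core, 35.7% a GC box, 1.63% a CArG box and 0.612% an EGR core. Frzb and Dkk2 each held 1 TCF/LEF core, and the other 3 of the 5 held none. With 5 windows this is near the share over all promoters, and nothing is read from it. They are shown with Sfrp5, which holds GC boxes alone. Capitals mark the TCF/LEF cores and GC boxes, none of which overlap. The RefSeq start sites of Frzb and Wif1 lie inside the gene spans given above. Most of the Frzb window, with both of its marked motifs, is therefore inside the span of the gene.
Frzb, chr2:80447347-80447646, minus strand, with TCF/LEF at -95 to -90 on the opposite strand and a GC box at -51 to -46: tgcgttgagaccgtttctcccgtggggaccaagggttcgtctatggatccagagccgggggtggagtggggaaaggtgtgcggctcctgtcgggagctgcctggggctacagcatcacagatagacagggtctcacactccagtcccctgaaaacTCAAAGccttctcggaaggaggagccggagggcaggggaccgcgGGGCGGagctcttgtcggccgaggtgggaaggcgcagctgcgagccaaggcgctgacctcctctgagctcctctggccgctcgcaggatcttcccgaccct
Dkk2, chr3:132085042-132085341, plus strand, with TCF/LEF at -80 to -75 and GC boxes at -60 to -55 and -17 to -12: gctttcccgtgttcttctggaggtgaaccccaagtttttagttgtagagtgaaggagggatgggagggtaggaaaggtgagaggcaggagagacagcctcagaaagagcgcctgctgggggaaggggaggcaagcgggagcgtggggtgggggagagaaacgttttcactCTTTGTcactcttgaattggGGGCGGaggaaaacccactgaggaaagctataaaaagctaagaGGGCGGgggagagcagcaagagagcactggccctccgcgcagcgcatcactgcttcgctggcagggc
Sfrp5, chr19:42202203-42202502, minus strand, with GC boxes at -43 to -38 and -1 to 5: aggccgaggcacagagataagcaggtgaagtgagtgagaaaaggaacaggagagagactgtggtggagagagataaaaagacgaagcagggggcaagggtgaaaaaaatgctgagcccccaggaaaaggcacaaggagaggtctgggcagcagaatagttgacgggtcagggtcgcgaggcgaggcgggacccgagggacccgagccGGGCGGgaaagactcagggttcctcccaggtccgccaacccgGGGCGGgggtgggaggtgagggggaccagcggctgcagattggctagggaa

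Wif1 held 2 GC boxes, and Sfrp2 held none of the 4 motifs. No CArG box and no EGR core stood in these 5 windows. These matches describe letters and were not tested as binding sites.

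The rest of the pathway was described with 6 lists of 82 genes, of which 53 were tested in the aorta and 62 in the kidney. In WT aortae none of the 53 had an adjusted p under 0.05 for HFD against SFD by edgeR (0% of all genes). DESeq2 called 666 genes or 4.5% in this comparison, and its calls among the 53 are not given here. At an unadjusted p under 0.05 by edgeR, 14 of the 53 were higher and 0 lower (5.68% of all genes higher and 11.3% lower). The median log2 fold change was 0.22, beside -0.01 over all genes. The part of the 2 fat-rich WT-SFD aortae in these counts was not tested. Of 9 Wnt ligands, 3 were higher at that limit, with the smallest p for Wnt9a (7.38 ± 0.996 to 11.6 ± 1.97 FPM, log2 fold change 0.65, SE 0.168, adjusted p = 0.0714). Of 12 receptors and co-receptors 6 were higher, led by Fzd2 (0.67, SE 0.198, adjusted p = 0.0943). Lgr6, a receptor for R-spondins, which strengthen Wnt signals, had 0.48 (SE 0.152, adjusted p = 0.114). Nkd1, a target gene that acts back on the pathway, had 0.46 (SE 0.151, adjusted p = 0.128). Tcf7l1, a transcription factor of the pathway, had 0.24 (SE 0.123, adjusted p = 0.348). Among the other antagonists Draxin had 3.02 (SE 1.45, adjusted p = 0.15) from a level of 0.13 ± 0.146 FPM in WT-SFD. Sost, which blocks Lrp5 and Lrp6, was at 297, 307 and 551 FPM in WT-SFD and 529 to 752 FPM in WT-HFD (0.74, SE 0.27, adjusted p = 0.177), with the high SFD value in aorta 3. Axin2, a common readout of the pathway, was at 8.45 ± 2.58 and 5.86 ± 1.73 FPM (-0.54, SE 0.345, adjusted p = 0.456).

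In KO against WT on HFD, none of the 53 passed in the aorta (0.0811% of all genes), and 1 was higher (Wisp1) and 2 were lower at an unadjusted p under 0.05 (2.94% of all genes higher and 2.41% lower). Wnt9a had the smallest p of the ligands (-0.45, SE 0.152, adjusted p = 0.718) and Wisp1 of the targets (0.55, SE 0.235, adjusted p = 0.896). For the other lists these were Fzd1 (-0.20), Kremen1 (-0.19), Znrf3 (0.16) and Dvl3 (0.17), with adjusted p of 0.969 to 0.999. For the difference of the diet effect 0 were higher and 6 lower at the unadjusted limit (2.25% of all genes higher and 2.12% lower). All 4 fat-rich aortae enter this comparison, and their part in these counts was not tested. The smallest p in each list was that of Wnt9a (-0.65, SE 0.237), Nkd1 (-0.49, SE 0.214), Tcf7 (-1.72, SE 0.694), Draxin (-3.14, SE 1.67), Fzd1 (-0.40, SE 0.211) and Rspo3 (-0.78, SE 0.511), each with an adjusted p of 0.998. As a description, the median over the 53 genes was 0.11 for KO against WT on SFD and 0.01 for HFD against SFD in KO.

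In WT kidneys, none of the 62 genes passed (0.964% of all genes), and 2 were higher and 3 lower at an unadjusted p under 0.05 (4.78% of all genes higher and 3.27% lower). The genes with the smallest p in their lists were Lgr4 (-0.31, SE 0.115), Ccnd1 (0.32, SE 0.131), Igfbp4 (0.59, SE 0.231), Fzd3 (-0.57, SE 0.265), Axin1 (-0.18, SE 0.0856) and Wnt9a (-0.47, SE 0.25), with adjusted p from 0.388 to 0.698. In KO against WT on HFD none passed, and 1 of 62 (Znrf3, -0.33, SE 0.153) was lower at the unadjusted limit (0.825% of all genes lower). The other 5 lists were led by Wnt10a (0.47), Lrp6 (-0.19), Tcf7 (0.54), Igfbp4 (0.32) and Axin2 (0.67), each with an adjusted p of 1. For the difference of the diet effect, 1 was higher (Fzd8, 0.44, SE 0.157) and 2 were lower (Lef1, -1.21, SE 0.447, and Ccnd1, -0.42, SE 0.184) at the unadjusted limit (1.7% of all genes higher and 1.65% lower), and none passed. Lgr4 (0.25), Sost (1.18) and Wnt8b (-2.00) led the other 3 lists. Medians over the 62 genes were -0.02 for KO against WT on SFD and -0.01 for HFD against SFD in KO.

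The genes most like each member were named by the Pearson correlation of log2 FPM over all libraries of a tissue, among genes with a mean of at least 5 FPM. In the aorta these were, for Sfrp1, Bmp6 (r = 0.93), Fam172a, Optc, Smt3h2.ps4 and Zeb1 (0.917 to 0.905). For Sfrp2 they were Smoc2 (0.963), Fbln7 and Ube2l6, for Dkk3 Sec24d (0.953), Cpe and Mrvi1, and for Wif1 Fkbp14 (0.938), Myl6 and Ldlrad4. They were Dock9 (0.933), Dnaja3 and Iars2 for Sfrp5, Fibin (0.911), Plcb4 and Casc4 for Frzb, Acbd4 (0.885), Supv3l1 and Gm21685 for Dkk2, and C1ra (0.871) and Csf1r for Sfrp4. No 2 members shared a gene. The 14 aortae share the split by fat, and these values are descriptions of these libraries.

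In the kidney, over 16 libraries, the genes most like Sfrp1 were Igsf11 (r = 0.921), Idh1, Tmem33, Prkar1a and Tmem64 (0.894 to 0.877), and none of these was among the aortic ones. Igsf11 ranged from 31.2 to 92.8 FPM. For Sfrp5 they were Immp2l (0.889), Gstt1 and Psph, for Frzb Mpped1 (0.866), Atp11a and Abhd2, for Sfrp4 Upk1a (0.85), Aatk and Sprr2a2, and for Dkk2 Ehhadh (0.833), Tmem62 and Ercc4. Wif1 (Cmas, 0.794, Ybx3 and Surf4), Dkk3 (Jak3, 0.793, Pspc1 and Il33) and Sfrp2 (Ears2, 0.777, Hrsp12 and Pgap3) had the lowest values.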

How the data were processed

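The authors trimmed aortic reads with cutadapt, while kidney reads were trimmed by the sequencing company. They aligned both with TopHat to GRCm38/mm10 and obtained gene counts with featureCounts, and the deposited tables hold these counts as whole numbers that were not normalised. Genes were annotated by the authors through BiomaRt, and the strand setting is not given in the sources used here. Counts were fitted per tissue in R 4.3.3 with edgeR 4.0.16 (TMM, filterByExpr within groups, glmQLFit with its current quasi-likelihood form, glmQLFTest), all groups in 1 fit, with 14796 aortic and 15034 renal genes tested. p values were adjusted over all of them by the Benjamini-Hochberg method, and genes were called at 0.05, beside DESeq2 1.42.0. Standard errors are on the log2 scale, and 95% intervals rest on them by a normal approximation. p values set a group difference against the spread between mice within groups, estimated over all groups of a tissue. No 2 libraries were copies (smallest chi-square per gene 8.38 and 9.22 over 91 and 120 pairs). The fit was also tested on simulated data, and no result of that test is given or relied on here. Exon lengths came from GENCODE vM21, in which 40254 of 41128 identifiers were found. The 8 members, the pathway and marker lists and the tests were chosen with earlier results of these data known. Named are all members, Egfr, and of each pathway list the gene with the smallest p in a tested comparison, plus Sost and Axin2, which were added after their values were seen. Alternatives were RLE size factors, no TMM, DESeq2, no low-count filter, only the groups compared, a limit of 0.001, a marker covariate, each library left out and, added after seeing the data, edgeR's older test and aortae with little fat. Ccn4 is given under its older symbol Wisp1. 1 gene that the rule for like genes names is not reported here. Depth limits the low members: counts per library were 1 to 61 for Sfrp5 and 2 to 33 for Dkk2 in the aorta.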

Additional observations from a re-analysis of the deposited data

Results flagged for a closer look

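Of 48 groups of 4 libraries, 1 per member, tissue and group, 1 held a library that stood far from the other 3: Sfrp4 in KO-HFD aorta 2, at 83.6 FPM, against 34.5 to 35.8 FPM. By chance about 1 in 20 such groups would do so. Without this library the log2 fold change of Sfrp4 for KO against WT on HFD was -0.28, in place of 0.15. Summed leucocyte markers, led by Lyz2, were 150 FPM in this aorta and 57.6 to 70.9 FPM in the other 3 of its group, and their part in the Sfrp4 value was not tested.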

How the results depend on the processing

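No paired analysis was possible because replicate numbers were given in accession order and the labels pair no mice across groups. In the aorta, HFD against SFD in WT had 0 of 7 members called and 0 to 3 with 1 library left out, 3 of them without WT-SFD aorta 3. In the kidney the same comparison had 0 of 7, 1 with DESeq2 (Sfrp5) and 0 to 1 with 1 library left out, 1 of them without WT-HFD kidney 1. The other counts of called members stayed at 0 under every alternative run.

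The remaining changes concern log2 fold changes that edgeR did not call with all libraries. Without the 4 fat-rich aortae, HFD against SFD in WT became -0.057 for Sfrp2, -0.51 for Frzb and -0.00022 for Dkk3, and the difference of the diet effect became 0.081 for Frzb. With the adipocyte covariate, Frzb had -0.33 in WT, Sfrp2 -0.051 for KO against WT on HFD, and Sfrp5 -0.084 for the difference of the diet effect. Library totals without TMM shifted the median of all genes by -0.219 for the difference of the diet effect in the aorta. With them the difference became -0.011 for Sfrp5, -0.071 for Dkk3 and -0.15 for Wif1, and Sfrp2 had 0.013 in WT kidneys. With the older quasi-likelihood form Sfrp2 had 0.0014 for the difference in the kidney. With 1 library left out, the aortic values ran from -0.27 to 0.51 for Frzb in WT, from -0.28 to 0.38 for Sfrp4 and -0.041 to 0.19 for Wif1 in KO against WT on HFD, and for the difference of the diet effect from -1.10 to 1.45 for Sfrp5, -0.43 to 0.35 for Frzb, -0.060 to 0.90 for Dkk2, -0.069 to 0.38 for Dkk3 and -0.081 to 0.31 for Wif1. The kidney values ran in WT from -0.31 to 0.23 for Sfrp2, -0.032 to 0.77 for Sfrp4, -0.17 to 0.090 for Frzb and -0.0080 to 0.41 for Wif1. In KO against WT on HFD they ran from -0.80 to 0.11 for Sfrp4, -0.13 to 0.48 for Sfrp5, -0.064 to 0.024 for Dkk2 and -0.026 to 0.15 for Dkk3, and for the difference from -0.30 to 0.24 for Sfrp2 and -0.20 to 0.054 for Frzb. Apart from fewer libraries where some were left out, the cause was not tested. Depth limits Sfrp5 and Dkk2 in the aorta and Sfrp4, Wif1 and Sfrp5 in the kidney.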

Other observations

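Sost, chosen after its values were seen, was low in the kidney, at 6 to 43 counts per library. It was at 0.759 to 2.70 FPM in WT-SFD and at 0.289 to 0.665 FPM in KO-SFD, with all 4 KO values below all 4 WT values, and at 0.696 to 0.976 FPM in KO-HFD. WT-SFD kidney 2 had the 2.70 FPM, and the other WT-SFD kidneys had 0.759 to 1.26 FPM. Summed podocyte markers were also lower, and thick ascending limb markers higher, in every KO-SFD than in every WT-SFD kidney. The part of these cell types in the Sost values was not tested. In the aorta Sost was at 297 to 551 FPM in WT-SFD and 249 to 584 FPM in KO-SFD, which overlapped.

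Other marker lists stood as follows, in summed FPM per library. In the aorta, endothelial markers were at 642 to 910, cartilage markers, led by Comp, at 31.5 to 73.6 and skeletal muscle markers, led by Tnnt3 and with Acta1 at 0, at 1.81 to 16.5. Podocyte markers were at 357 to 483 in the aorta, led by Synpo, and at 171 to 323 in the kidney, led by Podxl. Synpo alone had group means of 297 to 377 FPM in the aorta, so the aortic sum was mostly this gene and is not read as podocytes. In the kidney, fibroblast markers, led by Col14a1, were at 94.4 to 177, endothelial markers, led by Tie1, at 197 to 304 and leucocyte markers, led by Lyz2, at 43.2 to 185.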
